A study of Mus musculus with 2 samples.

Results

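The chemokine-high cells described here are epithelial cells of dysplastic mouse stomach organoids that carried the most Cxcl1 and Cxcl5 transcript after 1 day in the solvent DMSO. They were chosen by the summed counts of Cxcl1 and Cxcl5 per 10000 counts of a cell: of 1602 DMSO cells with at least 9320 counts, the 10% with the highest value, 160 cells, were taken. They were set against the 1095 DMSO cells with 0 counts of both genes, called 0-count cells here. The remaining 347 cells had a count but ranked lower. The organoids are the Meta4 line, grown from stomach corpus, and in both treatments the labels give dysplasia induction, with the driver allele Mist1-CreERT2Tg/+ and the Cre-activated allele LSL-K-ras(G12D)Tg/+. The inducible Cre is driven by the Mist1 promoter, which in the stomach marks chief cells. The second library, treated with pyrvinium, an anthelmintic drug, in place of DMSO for the same 1 day, held 1045 cells at the same depth threshold. The series asked which cells of the dysplastic organoids the drug affects before the organoids change shape. Each treatment has 1 library, so no difference was tested. The 95% intervals hold the error of counting alone, and a gene called "higher" or "lower" is so in the summed counts of these cells.

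Cxcl1 and Cxcl5 are small secreted proteins of the CXC chemokine family that carry an ELR motif and draw neutrophils through the receptor Cxcr2. In epithelium their genes are switched on by NF-κB, a transcription factor held in the cytoplasm by IκB proteins until IKK kinases mark these for breakdown, and interleukin 17 prolongs the life of their mRNAs. NF-κB also transcribes the gene of its own inhibitor IκBα, Nfkbia, so that Nfkbia mRNA is a common readout of recent signalling. Cxcl5, Cxcl3, Cxcl1 and Cxcl2 lie in 1 gene cluster on mouse chromosome 5, in that order, with Ppbp and Pf4 between Cxcl5 and Cxcl3, and Cxcl15 between Cxcl3 and Cxcl1.

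The 120 bases before the transcription start are shown for 3 of these NF-κB-regulated genes and for the protease gene Mmp7, because their levels carry the comparison below. They are RefSeq sequences of build GRCm38.p6. Capitals mark matches to the κB motif GGGANTTTC on either strand and, in Mmp7 only, to the AP-1 motif TGANTCA.
Cxcl1 (chr5:90891125-90891244, plus strand): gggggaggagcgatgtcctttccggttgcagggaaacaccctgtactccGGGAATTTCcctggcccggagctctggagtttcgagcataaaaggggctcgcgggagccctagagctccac
Cxcl2 (chr5:90903779-90903898, plus strand): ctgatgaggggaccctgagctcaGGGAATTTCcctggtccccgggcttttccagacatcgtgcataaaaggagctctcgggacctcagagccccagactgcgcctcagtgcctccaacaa
Nfkbia (chr12:55492648-55492767, minus strand): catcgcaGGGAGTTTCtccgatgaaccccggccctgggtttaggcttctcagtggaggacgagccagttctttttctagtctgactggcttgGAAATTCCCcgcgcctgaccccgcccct
Mmp7 (chr9:7691970-7692089, plus strand): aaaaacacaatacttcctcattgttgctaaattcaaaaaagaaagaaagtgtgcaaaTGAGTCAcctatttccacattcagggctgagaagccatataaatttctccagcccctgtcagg

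The κB match began 71 bases before the start in Cxcl1 and 97 bases before it in Cxcl2, and Nfkbia held 2 matches. Of 32851 RefSeq windows of 250 bases before a start, 0.941% held the κB motif and 6.75% the AP-1 motif; the motifs do not overlap each other in the sequences shown. Mmp7 has 2 starts in the table, of which 1 held the AP-1 match. Cxcl3 and Reg3g also held a κB match in that window, 1 of 2 Tnfaip3 starts held an AP-1 match, and Ccl20, Ptgs2, Ifitm1, Lcn2, Zfp36 and Fos held neither motif. Cxcl5, Cd14 and Fn1 have no entry in the table. A match is a description of letters and not evidence that a factor was bound.

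The level of Cxcl1 and Cxcl5 varied widely among the 160 chosen cells. Their summed level was 1.85 per 10000 counts at the median, with quartiles of 1.18 and 2.82 and a highest value of 68.3. Cxcl1 was detected in 150 of them and Cxcl5 in 37, with 27 cells holding both, so the group was mostly made of Cxcl1-positive cells. Summed over the chosen cells, Cxcl1 had 665 counts, or 177 CPM (counts per 1e+06 counts), and Cxcl5 364 counts, or 97.1 CPM; by the rule both were 0 in the 0-count cells. These values chose the cells and are given as a description.

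**Figure D1:**
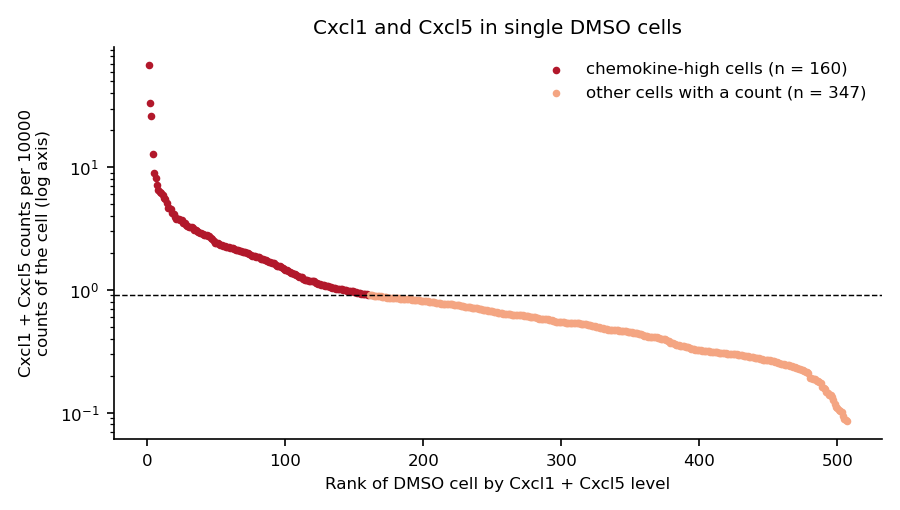
Each point is 1 DMSO cell with a count of Cxcl1 or Cxcl5, placed by its rank on the x axis and by its Cxcl1 and Cxcl5 counts per 10000 counts on the y axis, which is logarithmic; the dashed line is the lowest level among the 160 chosen cells. A few cells stood far above the rest, with the highest at 68.3, and the levels declined without a step at the line.

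Cell numbers near the limit rest on single counts. The lowest chosen cell had 1 count in 10933, a level of 0.915, and the highest cell outside had 1 count in 10936, a level of 0.914. Of the chosen cells, 17 had 1 chemokine count, 32 had 2 and 111 had at least 3. A 0-count cell of median depth, 16778 counts, could hold up to 1.79 per 10000 and still show none, so some 0-count cells may carry as much as a chosen cell. Barcodes with 100 to 500 counts, taken as free RNA, held 0.393 per 10000, with Cxcl1 at 29.2 CPM and Cxcl5 at 10.1 CPM. The depth of the groups was close, with a median of 17667 counts and 3531 genes in chosen cells against 16778 counts and 3403 genes in 0-count cells, while the 347 other positive cells were deeper at 30774 counts. Mitochondrially encoded genes took 2.87% of counts in chosen cells and 2.54% in 0-count cells. No cell barcode was shared by the libraries.

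A random split gave each cell 2 sets of counts. With 1 set, 160 cells were chosen anew, and 1257 cells had 0 counts of both genes in that set. In the other set Cxcl1 was 132 CPM in these 160 cells and 13.6 CPM in these 1257 cells, a ratio of 9.76 (interval 7.996 to 11.9). Cxcl5 was 104 CPM in these 160 cells and 1.56 CPM in these 1257 cells, a ratio of 66.4 (42.5 to 109). Both genes were thus high again in the set of counts that had not chosen the cells. Both sets came from the same cells and library, and these are the genes of the rule, so this describes the choice alone.

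A few cells carried much of the signal. The 10 cells with the highest level held 25.05% of all Cxcl1 and Cxcl5 counts of the DMSO library, and all 160 held 65.8%. The highest cell had 112 counts of Cxcl5, 11 of Cxcl1, 7 of Ccl20 and 6 of Cxcl2 in 18000 counts. The second had 60 counts of Cxcl5, 37 of Cxcl3, 30 of Ccl20 and 20 of Cxcl2, with 0 of Cxcl1. The third had 42 counts of Cxcl5, 35 of Cxcl1, 23 of Ccl20 and 10 of Cxcl3. These 3 cells thus held several chemokine transcripts at once, whereas the fifth and the sixth had 13 and 12 counts of Cxcl1 and 0 of Cxcl5. Over the chosen cells, the 5 highest held 68.4% of Cxcl5 counts but 16.1% of Cxcl1 counts, so Cxcl5 came from few cells and Cxcl1 from many.

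The label was checked against markers. All 12 epithelial genes were measured and 0 were called higher or lower, with Epcam, an adhesion molecule of epithelial cells, at 403 CPM in chosen cells and 337 CPM in 0-count cells, and Krt8, a keratin of simple epithelia, at 1769 CPM in chosen cells and 2042 CPM in 0-count cells. Of 14 leukocyte genes only Cd14 and Cd68 reached 20 counts, and Ptprc, the leukocyte surface phosphatase, had 0 counts in chosen cells and 6 in 0-count cells. The neutrophil genes S100a8 and S100a9 had 0 counts in both groups. None of the 7 neutrophil, 9 fibroblast or 6 endocrine genes reached 20 counts in the groups together. Of 3 measured chief cell genes 2 were higher (66.7%, beside 2.59% of all genes). Cblif had 10.9 CPM in chosen cells, in 10 of them, and 3.35 CPM in 0-count cells. Pgc had 10.1 CPM in chosen cells, in 14 of them, and 6.06 CPM in 0-count cells. Bhlha15, at 2.13 CPM in chosen cells and 4.21 CPM in 0-count cells, was not called. Of 4 tuft genes 1 was lower, Avil (25%, beside 1.96%), and of 3 endothelial genes 0 were called. Cxcr2 was found in 3 chosen cells and 14 0-count cells with 1 count at most in a chosen cell.

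Against the 0-count cells, a gene was called higher or lower when its summed CPM differed at least 1.5-fold with the whole interval on that side of 1, among genes with at least 20 counts in the groups together. This took 340 of 13111 genes as higher (2.59%) and 257 as lower (1.96%). Cxcl1 and Cxcl5 were left out of these counts because they chose the cells. The 12 higher genes named by the interval bound nearest 0 held a chemokine, a prostaglandin synthase, a matrix protease, the NF-κB inhibitor Nfkbia and several secreted or surface proteins; that interval holds counting error and not the spread between cells. The lower ones included Ddit3, Trib3 and Nupr1, genes of the integrated stress response.

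Nfkbia had 306 CPM in chosen cells (interval 289 to 324) and 142 CPM in 0-count cells (137 to 147), 2.15-fold higher, and was found in 140 of the 160 chosen cells. After every cell was thinned to 5000 counts it was present in 65.6% of chosen cells and in 43.0% of 0-count cells, against 155 CPM in free RNA. Cd14, the co-receptor that hands lipopolysaccharide to Toll-like receptor 4, had 99.99 CPM in chosen cells and 45.2 CPM in 0-count cells, 2.21-fold higher, and was present in 31.9% of thinned chosen cells and 19.0% of thinned 0-count cells. Nfkbia and Cd14 thus differed over many cells, with the 5 highest chosen cells holding 18.6% of the Nfkbia and 19.2% of the Cd14 counts of the group. Mmp7, matrilysin, a protease that epithelial cells secrete, had 869 CPM in chosen cells and 366 CPM in 0-count cells, 2.37-fold higher, and was present in 56.2% of thinned chosen cells and 36.9% of thinned 0-count cells. Ifitm1, an interferon-induced membrane protein, had 251 CPM in chosen cells and 122 CPM in 0-count cells. Reg3g, a bactericidal lectin of mucosal surfaces, had 77.6 CPM in chosen cells and 39.9 CPM in 0-count cells, and was 1.28-fold in the same hypoxia range, 1.31-fold in the same immediate-early range and 1.48-fold with clusters weighted alike, settings described below.

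Ccl20, a chemokine that draws Ccr6-bearing lymphocytes and dendritic cells, had 54.9 CPM in chosen cells and 1.63 CPM in 0-count cells, 33.7-fold higher. Its counts came from 13 chosen cells, of which 5 held 92.2%, and without the top cell of each group the ratio was 21.8. Ptgs2, the inducible cyclooxygenase that makes prostaglandin precursors, had 25.1 CPM in chosen cells and 9.11 CPM in 0-count cells, in 16 chosen cells with 85.1% of counts in 5 of them. Sprr1a, a cornified envelope protein, had 80.5 CPM in chosen cells and 35.8 CPM in 0-count cells, with 80.1% in 5 cells. Fn1, fibronectin, had 60.5 CPM in chosen cells and 26.9 CPM in 0-count cells, and 1.502-fold without the top cell of each group. These 4 genes were thus set by a handful of cells. Sbspon, Anpep and Acot1 completed the 12 highest genes at 2.31- to 2.35-fold; Anpep is the surface aminopeptidase N, and Acot1, an acyl-CoA thioesterase, has close paralogs that may share reads.

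In cells of the same range of total counts, Ptgs2 was 0.239-fold and Sprr1a 0.625-fold, the opposite direction, and Fn1 was 1.02-fold, Reg3g 1.08-fold and Anpep 1.36-fold, all below 1.5-fold. The same setting gave 2.28-fold for Nfkbia, 2.15-fold for Cd14, 3.08-fold for Mmp7, 3.84-fold for Ifitm1, 16.5-fold for Ccl20, 2.73-fold for Sbspon and 1.95-fold for Acot1. The higher level of Nfkbia, Cd14, Mmp7 and Ifitm1 was therefore also present at matched depth.

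**Figure D2:**
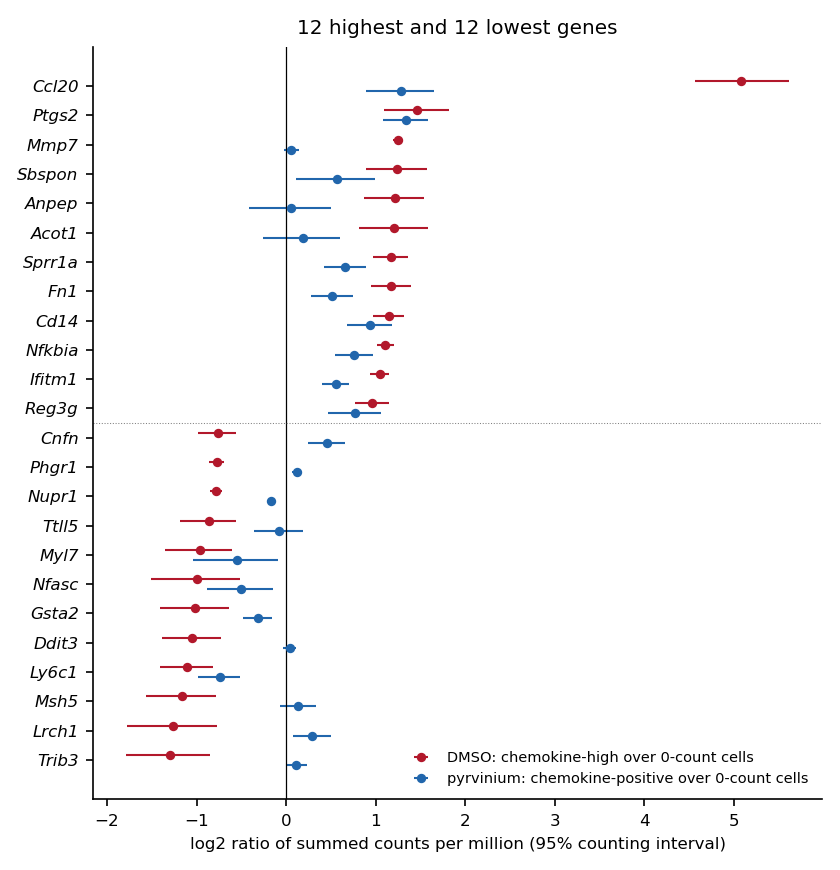
Log2 ratios of the 12 highest and 12 lowest genes, for chemokine-high over 0-count cells of the DMSO library in red and for chemokine-positive over 0-count cells of the pyrvinium library in blue, with 95% counting intervals as bars. All 12 highest genes had a ratio above 1 in the pyrvinium library too, whereas 6 of the 12 lowest had a ratio below 1 there.

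The list of the other CXC chemokines also holds the CX3C chemokine Cx3cl1. Of its 7 measured genes 5 were higher (71.4%, beside 2.59% of all genes) and 0 lower, with a median log2 ratio of 1.30 against 0.03 over all genes. Cxcl2, a close relative of Cxcl1, had 19.998 CPM in chosen cells and 1.29 CPM in 0-count cells, 15.5-fold higher, in 19 chosen cells. Cxcl3 had 14.7 CPM in chosen cells and 1 count in all 0-count cells; 94.5% of its counts in chosen cells came from 5 cells, and its log2 ratio of 8.42 has an interval of 5.88 to 13.74. Cxcl10, an interferon-induced chemokine for T cells, had 7.73 CPM in chosen cells and 2.92 CPM in 0-count cells. Cxcl16, a membrane-bound chemokine, had 59.7 CPM in chosen cells and 37.8 CPM in 0-count cells, 1.58-fold higher, and Cxcl15 had 6.13 CPM in chosen cells and 2.49 CPM in 0-count cells. Cxcl17, at 4.53 CPM in chosen cells and 6.14 CPM in 0-count cells, was not called, and neither was Cx3cl1, at 18.1 CPM in chosen cells and 12.8 CPM in 0-count cells. Cxcl9 and Cxcl12 had 0 counts in both groups. Of the CC chemokines, 1 of 4 was higher, Ccl20 (25%, beside 2.59% of all genes), and 1 lower, Ccl5 (25%, beside 1.96%). Ccl5 had 1 count in chosen cells and 78 counts in 9 of the 0-count cells.

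NF-κB pathway genes were counted as targets, inhibitors and subunits. Of 24 measured target genes other than Cxcl1 and Cxcl5, 11 were higher and 0 lower, 45.8% beside 2.59% of all genes, with a median log2 ratio of 0.53. Within the 6 clusters of cells described below, that median lay between 0.15 and 0.69. It was 0.36 in cells of the same immediate-early range, also described below. The genes called were Ccl20, Cxcl2, Tnf, Ptgs2, Cxcl10, Csf1, Nfkbia, Irf1, Zc3h12a, Map3k8 and Tnfaip3. Of 10 inhibitor genes 2 were higher (20%, beside 2.59% of all genes), both also counted among the targets. They were Nfkbia and Tnfaip3, the ubiquitin-editing enzyme A20. Tnfaip3 had 75 counts, 19.998 CPM, in chosen cells and 10.8 CPM in 0-count cells, 1.85-fold higher. Tnfaip3 was 1.27-fold in cells of the same immediate-early range and lay above 1 in 4 of the 6 clusters. Nfkbiz, an atypical IκB needed for some secondary responses, had 32.0 CPM in chosen cells and 22.03 CPM in 0-count cells, 1.45-fold and below the call. Of the 5 subunit genes none was called: in chosen cells Rela had 15.5, Nfkb1 7.73, Nfkb2 11.7, Relb 9.07 and Rel 3.47 CPM, and in 0-count cells Rela had 17.6, Nfkb1 8.68, Nfkb2 8.42, Relb 8.59 and Rel 3.26 CPM. All 5 subunit genes were thus within 1.5-fold. Of 22 IKK and adaptor genes 1 was higher (4.55%, beside 2.59% of all genes). It was the kinase gene Map3k8, at 6.93 CPM in chosen cells and 3.74 CPM in 0-count cells. Of 19 chemokine and cytokine receptor genes 0 were called in either direction.

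Of 15 measured epithelial cytokine genes 5 were higher (33.3%, beside 2.59% of all genes) and 0 lower, all of them at low level. Il1a, interleukin 1α, had 27 counts in 4 chosen cells, 21 of them in 1 cell, and 7 counts in 4 of the 0-count cells. Tnf had 20 counts in 15 chosen cells and 20 counts in 19 of the far more numerous 0-count cells, 6.21-fold higher, with no more than 3 counts in any chosen cell. Csf1 was 2.45-fold, Lif 1.72-fold and Ereg 1.71-fold higher. The 5 highest chosen cells held 50% of the Tnf counts of the group.

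Genes that interleukin 17 is known to induce in epithelium were also higher, 7 of 11 measured (63.6%, beside 2.59% of all genes) with 0 lower and a median log2 ratio of 0.94. Lcn2, a siderophore-binding antibacterial protein, had 15.7 CPM in chosen cells and 0.859 CPM in 0-count cells, 18.3-fold higher, with 93.2% of its counts in 5 cells. Duoxa2, the maturation factor of the hydrogen peroxide-producing enzyme Duox2, had 14.1 CPM in chosen cells and 2.88 CPM in 0-count cells, 4.91-fold higher. The Duoxa2 counts came from 17 chosen cells, of which 5 held 71.7%. Duox2 itself had 4.80 CPM in chosen cells and 1.16 CPM in 0-count cells, with 61.1% of the chosen cells' counts in 5 cells. Pigr, which carries immunoglobulin A across the epithelium, had 10.7 CPM in chosen cells and 2.66 CPM in 0-count cells, 4.01-fold higher, in 21 chosen cells. The other called genes were Reg3g, Zc3h12a and Cebpd. Of 21 STAT3 target genes 3 were higher (14.3%, beside 2.59% of all genes), Lcn2, Reg3g and Cebpd, which the interleukin 17 list also holds.

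**Figure D3:**
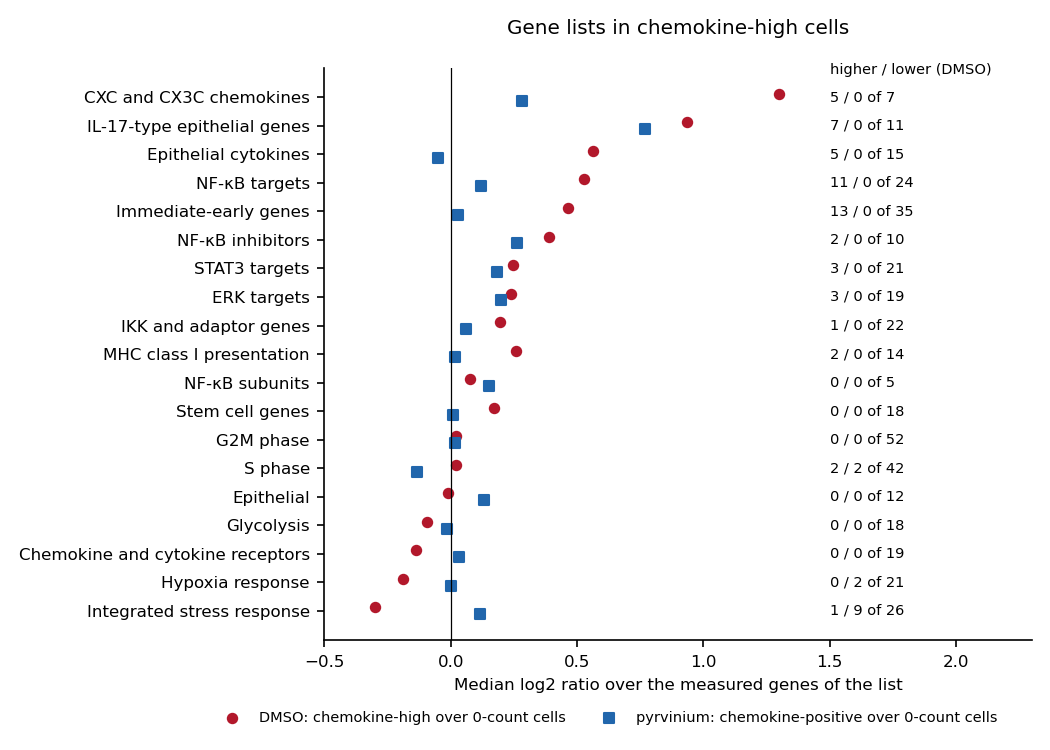
Median log2 ratio of each gene list for chemokine-high over 0-count cells of the DMSO library (circles) and chemokine-positive over 0-count cells of the pyrvinium library (squares); the numbers give genes higher and lower of those measured in DMSO. CXC and CX3C chemokines, genes induced by interleukin 17, cytokines, NF-κB targets and immediate-early genes lay to the right in DMSO, and the integrated stress response lay to the left.

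Immediate-early genes, transcribed within minutes of a stimulus and also of cell dissociation, were higher as a group, 13 of 35 (37.1%, beside 2.59% of all genes) with 0 lower and a median log2 ratio of 0.46. Fos had 683 CPM in chosen cells and 441 CPM in 0-count cells, 1.55-fold higher, Jun 428 CPM in chosen cells and 272 CPM in 0-count cells, and Atf3 242 CPM in chosen cells and 147 CPM in 0-count cells. Zfp36, whose protein hastens the decay of cytokine mRNAs, had 261 CPM in chosen cells and 146 CPM in 0-count cells, 1.79-fold higher. In cells thinned to 5000 counts Fos was 1.27-fold, Zfp36 1.39-fold and Atf3 1.46-fold, all below 1.5-fold. The summed level of the list was 40.4 per 10000 counts at the median in chosen cells and 25.9 in 0-count cells. In the 80 chosen cells and 422 0-count cells between 25.4 and 60.3 per 10000, the ratios were 20.1 for Ccl20, 9.20 for Cxcl2, 2.28 for Ptgs2, 1.67 for Cd14, 1.52 for Nfkbia, 1.32 for Mmp7 and 1.03 for Ifitm1. The groups were not fully alike within this range: Fos was still 1.20-fold, Jun 1.25-fold and Zfp36 1.31-fold higher in chosen cells. Cxcl2, Cd14 and Nfkbia stayed at least 1.5-fold higher in it, Nfkbia only just, and Mmp7 and Ifitm1 did not. Dissociation was not recorded per cell, and its part in the difference was not tested. Of 12 heat shock and dissociation genes 1 was higher, Hspb1 (8.33%, beside 2.59% of all genes).

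In the integrated stress response, Atf4 and its partner Ddit3 (CHOP) act on amino acid supply. Of its 26 measured genes 9 were lower (34.6%, beside 1.96% of all genes) and 1 higher (3.85%, beside 2.59%). The median log2 ratio was -0.30. Summed over the list, thinned cells had a median of 7 counts in both groups. The upper quartile was 11 in chosen cells and 12 in 0-count cells, and the upper decile 16.2 in chosen cells and 25 in 0-count cells. In thinned cells the groups thus differed mainly among the cells with the highest levels of the list. Trib3, a pseudokinase induced by Atf4 and Ddit3, had 11.2 CPM in chosen cells and 27.5 CPM in 0-count cells, and was present in 3.12% of thinned chosen cells and 8.77% of thinned 0-count cells. Ddit3 had 22.7 CPM in chosen cells and 46.8 CPM in 0-count cells, and was present in 7.50% of thinned chosen cells and 13.4% of thinned 0-count cells. Nupr1, a small stress-induced chromatin protein, had 562 CPM in chosen cells and 966 CPM in 0-count cells. The 1 higher gene was Atf3, which the immediate-early list also holds. Hypoxia genes had 2 of 21 lower (9.52%, beside 1.96%), Adm and Ndrg1, and 0 higher. In the 80 chosen cells and 448 0-count cells of the same hypoxia level, between 8.48 and 31.3 per 10000, Ddit3 was 1.59-fold, Trib3 1.56-fold and Nupr1 1.08-fold higher, the opposite direction, while Nfkbia was 2.24-fold and Mmp7 2.07-fold higher. The lower level of Ddit3, Trib3 and Nupr1 therefore did not hold at a like hypoxia level.

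The other lower genes were of mixed kind. Gsta2, a glutathione S-transferase whose reads may be shared with close paralogs such as Gsta1, had 16.8 CPM in chosen cells and 33.9 CPM in 0-count cells, and its ratio stayed between 0.367 and 0.545 in cells matched for counts, hypoxia level, immediate-early level or cluster, or thinned. Ly6c1, a surface antigen, had 27.5 CPM in chosen cells and 59.3 CPM in 0-count cells, and Cnfn, cornifelin, 54.7 CPM in chosen cells and 92.9 CPM in 0-count cells with 91.7% of the chosen cells' counts in 5 cells. Phgr1 had 352 CPM in chosen cells and 603 CPM in 0-count cells, and Myl7, Nfasc, Ttll5, Msh5 and Lrch1 completed the 12 lowest at 0.419- to 0.549-fold. Proliferation and stem cell genes gave little. Of 42 S-phase genes 2 were higher (4.76%, beside 2.59% of all genes) and 2 lower (4.76%, beside 1.96%). Of 52 G2M genes 0 were called, and of 18 stem cell genes 0. Of 17 Wnt target genes 1 was higher, Nkd1 (5.88%, beside 2.59%). Interferon response genes gave 2 higher of 14 (14.3%, beside 2.59%), Irf1 and Xaf1, and 2 lower (14.3%, beside 1.96%), Isg15 and Oas1a. MHC class I genes gave 2 higher of 14 (14.3%, beside 2.59%), Psmb9 and Tap2. ERK targets gave 3 higher of 19 (15.8%, beside 2.59%), Fos, Egr1 and Epha4, with 0 lower in either list. Of 21 invasion and plasminogen genes Mmp7 alone was called, as higher (4.76%, beside 2.59%).

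Several genes followed the chemokine level stepwise. Nfkbia had 142 CPM in 0-count cells, 172 CPM in the other positive cells, 292 CPM in the 80 lower-ranked chosen cells and 325 CPM in the 80 upper-ranked ones. Cd14 had 45.2, 55.2, 76.7 and 132 CPM over the same 4 steps, and Mmp7 366, 398, 726 and 1067 CPM. Ddit3 had 46.8, 29.9, 28.5 and 14.6 CPM, and Trib3 27.5, 20.5, 15.6 and 5.09 CPM. Fn1 and Sprr1a did not follow it: Fn1 had 26.9, 25.95, 76.2 and 38.8 CPM over the 4 steps, and Sprr1a 35.8, 28.7, 118 and 28.6 CPM. The median depth over the 4 steps was 16778, 30774, 20349 and 14960 counts. Among the steps with a chemokine count, depth thus fell as the chemokine level rose, and its part in these trends was not tested.

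**Figure D4:**
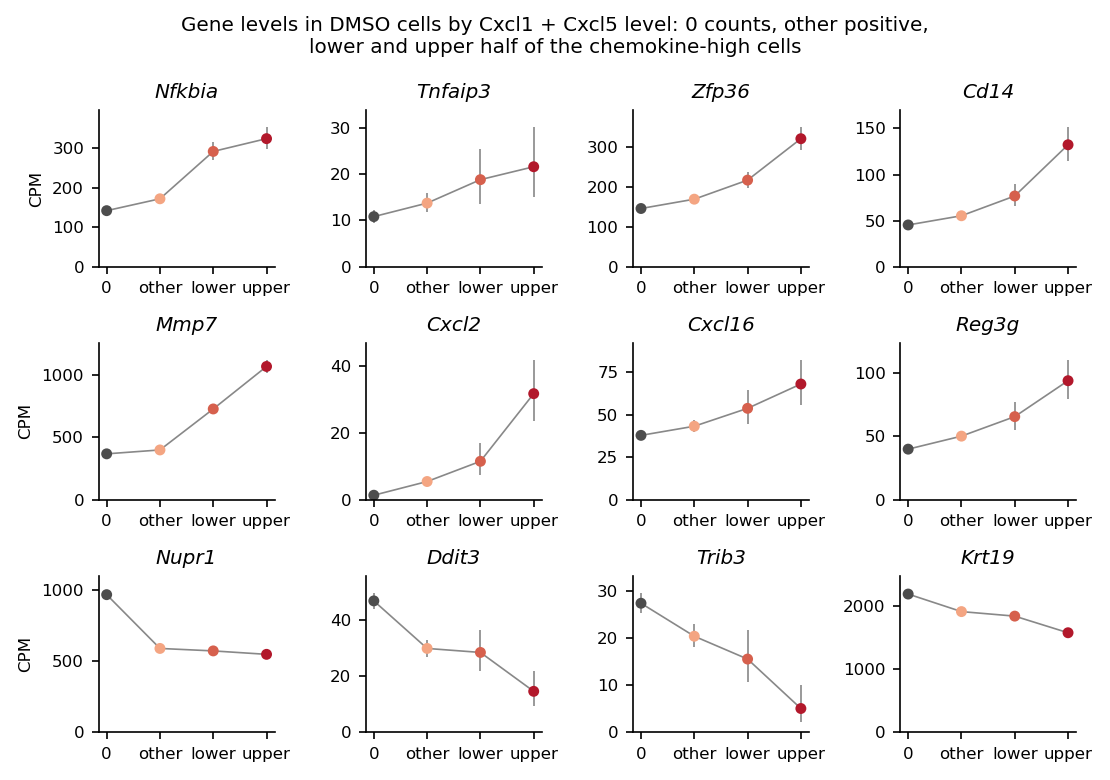
CPM of 12 genes, with 95% Poisson intervals, in DMSO cells with 0 chemokine counts, other positive cells, and the lower-ranked and upper-ranked 80 chemokine-high cells, left to right. Nfkbia, Cd14, Mmp7 and Cxcl2 were higher at each step and Ddit3 and Trib3 lower at each step, with overlapping intervals between some neighbouring steps, while Nupr1 lay at 966 CPM in 0-count cells and between 548 and 589 CPM in the other 3.

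Choosing by 1 of the 2 genes changed the ratios of several genes. Among the 160 cells highest in Cxcl1, set against 1140 cells without Cxcl1, Nfkbia was 2.20-fold, Ptgs2 2.57-fold, Fn1 2.21-fold, Fos 1.57-fold, Lcn2 2.46-fold and Ccl20 1.52-fold higher. Among the 84 cells with Cxcl5, set against 1518 cells without it, Ccl20 was 49.5-fold and Lcn2 13.4-fold higher, and Nfkbia was 1.15-fold, Ptgs2 0.909-fold, Fos 0.932-fold and Fn1 0.859-fold. Mmp7 was 2.08-fold and 2.06-fold higher and Cd14 1.88-fold and 2.02-fold higher in the Cxcl1 and Cxcl5 choice. Cxcl5 itself was 7.80-fold higher in the Cxcl1-chosen cells and 3.10-fold without its top cell, and Cxcl1 was 2.36-fold higher in the Cxcl5-positive cells. The Cxcl5-positive cells were deeper, with a median of 23984 counts against 18516 in the cells without Cxcl5, and the sets of cells overlap, so the difference between the choices was not tested. Of 7 DMSO cells with at least 5 counts of Ccl20, 6 held Cxcl5 and 5 held at least 5 counts of it.

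The chosen cells were found in all 6 clusters of the DMSO cells, which were made without chemokine genes. They made up 18.01% of cluster 3 (interval 13.1 to 23.9%), whose 10 leading genes include Lcn2, Pigr, Itln1, Ifitm1, Mmp7 and Cxcl5, and 14.3% of cluster 1 (9.63 to 20.1%), whose leading genes include Crct1, Ccl20, Ptgs2 and Fn1. In the others they made up less, down to 6.52% of cluster 0. Several genes that were higher in the chosen cells thus also lead the clusters richest in them. Within the clusters, Nfkbia was 1.55- to 2.82-fold higher in all 6, Cxcl2 was at least 4.14-fold higher in all 6, the lowest ratio resting on 3 counts in chosen cells of cluster 0, and Mmp7 was above 1 in all 6, at 1.15- to 2.11-fold. Fos was above 1 in all 6, at 1.09- to 2.10-fold, and Cd14 in 4. Ccl20 was 4.96- to 125-fold higher in the 4 clusters where both groups had counts and had 0 counts in the chosen cells of clusters 2 and 4. Fn1 was above 1 in 4 of 6, Sprr1a and Ddit3 in 3 of 6 and Trib3 in 1 of 6. In cluster 5, where Ddit3 was highest, it had 59.1 CPM in chosen cells and 182 CPM in 0-count cells. With the 0-count cells weighted to the clusters of the chosen cells, Nfkbia was 1.94-fold, Cd14 1.86-fold, Mmp7 1.74-fold and Ifitm1 1.36-fold higher. Weighted in this way, Ifitm1, Fos at 1.30-fold, Atf3 at 1.28-fold, Zfp36 at 1.43-fold and Reg3g at 1.48-fold were below 1.5-fold.

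**Figure D5:**
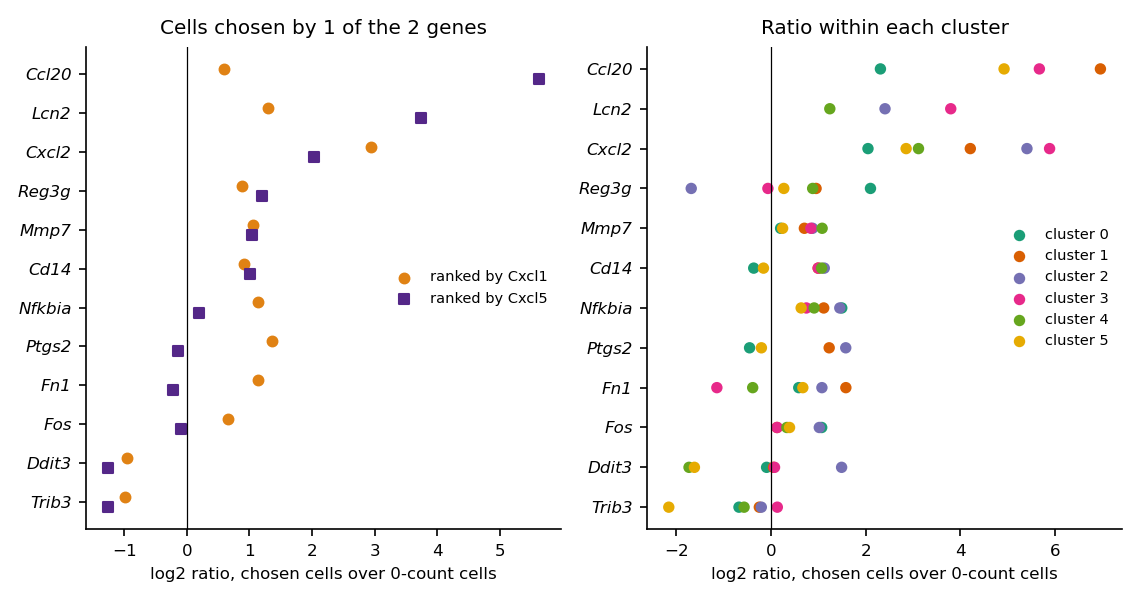
Left, log2 ratios when cells were chosen by Cxcl1 alone (circles) or Cxcl5 alone (squares) over cells with 0 counts of that gene. Right, log2 ratios of chemokine-high over 0-count cells within each of the 6 clusters, shown where both groups had counts; Nfkbia, Fos, Mmp7 and Cxcl2 lay above 0 in every cluster, and Ddit3, Trib3, Fn1 and Reg3g on both sides.

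The pyrvinium library holds other cells, treated differently, and did not choose the genes. At the same depth threshold 105 of its 1045 cells had a count of Cxcl1 or Cxcl5, so its top 10%, 104 cells, were nearly all of its positive cells, 71 of them with 1 count. Their level was 0.307 per 10000 at the median, against 1.85 in the chemokine-high DMSO cells, and they were deeper than the 940 pyrvinium 0-count cells, with a median of 43635 counts in positive cells against 23630 in 0-count cells. In this library 293 of 13805 genes were higher in positive cells (2.12%) and 160 lower (1.16%). All 12 of the highest DMSO genes had a ratio above 1 and 6 were called, Ccl20, Ptgs2, Sprr1a, Cd14, Nfkbia and Reg3g. Of the 12 lowest, 6 had a ratio below 1 and 1 was called, Ly6c1. In pyrvinium cells of the same depth range, 52 positive and 341 0-count cells with 24221 to 72580 counts, all 12 highest genes again lay above 1 and 11 of the 12 lowest below 1, with fewer cells in both groups. Whether depth or the change of cells moved the count of the lowest genes was not tested. Nfkbia had 43.0 CPM in positive cells and 25.4 CPM in 0-count cells, 1.69-fold higher and 1.78-fold in cells of the same depth range. Cd14 had 31.1 CPM in positive cells and 16.3 CPM in 0-count cells, 1.91-fold higher and 1.54-fold in the same depth range. Lcn2 had 44.6 CPM in positive cells and 7.89 CPM in 0-count cells, 5.65-fold higher, and Mmp7 252 CPM in positive cells and 242 CPM in 0-count cells, 1.04-fold and 1.29-fold in the same depth range. Nfkbia, Cd14 and Lcn2 were thus higher with the chemokines in both libraries, and Mmp7 was called in DMSO only, a difference between libraries that was not tested.

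Of the 314 genes called higher in DMSO and measured in both libraries, 27 were also called higher in pyrvinium. These are 8.60% of the DMSO calls and 10.3% of the 263 pyrvinium calls, beside 2.04% of all 12878 genes measured in both. Of the 314, 6 were called lower in pyrvinium, also a larger share than the 1.13% of all genes. Of the 248 genes called lower in DMSO, 16 were also called lower in pyrvinium. These are 6.45% of the DMSO calls and 10.96% of the 146 pyrvinium calls, beside 1.13% of all genes. Of the 248, 10 were called higher in pyrvinium, also a larger share than the 2.04% of all genes. Calls in the opposite direction were thus also more frequent than over all genes. The list counts that follow stand beside 2.12% of all genes higher and 1.16% lower in pyrvinium, where positive cells were deeper than 0-count cells. Among genes induced by interleukin 17, 6 of 11 were higher in pyrvinium and 0 lower, with a median log2 ratio of 0.77. Among NF-κB targets 3 of 23 were higher and 1 lower, with a median of 0.12, and among immediate-early genes 0 of 31 were higher and 1, Nr4a1, lower. Zfp36 had 52.5 CPM in positive cells and 69.3 CPM in 0-count cells, and Fos 48.0 CPM in positive cells and 33.9 CPM in 0-count cells. The integrated stress response had 0 of 27 genes called in either direction in pyrvinium, with Ddit3 at 314 CPM in positive cells and 306 CPM in 0-count cells.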

How the data were processed

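Single-cell RNA of 1 DMSO and 1 pyrvinium library was captured with the PIPseq method and its T2 kit, per the labels' protocols. Partek and build GRCm39 are named in the submitters' processing notes; which aligner, counter, annotation and barcode filter made the files is not given in the sources used here. The deposited matrices hold raw whole-number counts per gene and barcode, over 32227 genes and 331629 DMSO and 353485 pyrvinium barcodes; whether a count is a molecule is not stated.

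Barcodes with at least 9320 counts were taken as cells. The DMSO cells summed to 39980497 counts and the pyrvinium cells to 39169329. Members and gene lists were chosen with earlier results of these data known. Counts were summed over the cells of a group and scaled to CPM, with exact Poisson 95% intervals for levels and exact conditional binomial intervals for ratios; shares have exact Clopper-Pearson intervals. A 0 was set against a floor of 3 counts only in calling genes, and no fold is given for such a gene. Cells are not replicates, so no p-value was computed. Named genes are the 12 highest and 12 lowest by the interval bound nearest 0 among those with at least 20 CPM in a group, up to 4 per list described with at least 10 CPM, and all CXC chemokine and NF-κB subunit and inhibitor genes; other called list members were named after their values were seen. For 27 symbols shared by several genes, Ddit3 among them, values are those of the lowest Ensembl number. Clusters used 2000 variable genes, 30 principal components, 15 neighbours and Leiden resolution 0.5 in scanpy 1.11.5. Scrublet marked 4 DMSO cells (0.25%), so its calls were not used and doublets stayed in, with removal of the 5% highest scores as an alternative. The method was tested on simulated summed counts with known ratios, which held counting error and no spread between cells.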

Additional observations from a re-analysis of the deposited data

How the results depend on the processing

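Over 22 alternatives the count of genes higher in chemokine-high cells lay between 114 and 455 (340 as reported), the count of lower genes between 171 and 534 (257 as reported), and the median log2 ratio of NF-κB targets between 0.15 and 0.78 (0.53 as reported). The planned equal weighting of clusters holds only cluster 3, the only cluster with at least 30 cells of each group, and gave the 114 higher genes and the median of 0.15; the lower genes numbered 171 when cells were thinned to 5000 counts, and 534 by the mean over cells. Equal weights for all 6 clusters, chosen after seeing the data, gave 283 higher and 244 lower genes. Ccl20, Cd14, Cxcl2, Lcn2, Pigr and Gsta2 kept their direction and at least 1.5-fold in all 23 settings run for each. Log2 ratios of called genes that changed direction follow. Among the top 5% of cells Sprr1a was -0.32. Ranked by Cxcl5 alone, Ptgs2 was -0.14, Sprr1a -0.066, Fn1 -0.22, Klf2 -0.85, Fos -0.10, Egr1 -0.066 and Lrch1 0.14. In the same range of counts Ptgs2 was -2.07 and Sprr1a -0.68. In thinned cells Cxcl15 was -1.78, Sprr1a -0.23, Fn1 -0.091, Irf1 -0.070 and Lrch1 0.15. Within cluster 3, Cxcl10 was -0.020, Sprr1a -1.14, Fn1 -1.15, Irf1 -0.020, Reg3g -0.067, Hpgd -0.17, Slc7a11 0.18, Ndrg1 0.29, Hmox1 0.37, Cnfn 2.04, Nupr1 0.21, Adm 1.04, Chac1 0.49, Myl7 0.98, Nfasc 0.13, Ddit3 0.073, Ly6c1 0.23 and Trib3 0.13. In the same hypoxia range, also chosen after seeing the data, Hmox1 was 0.52, Nupr1 0.11, Ddit3 0.67 and Trib3 0.64. Their causes were not tested. No paired analysis was possible because each treatment has 1 library.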
